A study of Homo sapiens with 4 samples.

Results

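Ribosomal protein pseudogenes are copies of ribosomal protein genes scattered over the human genome. They were followed here in total RNA of OVCAR3, a human line derived from a high-grade serous carcinoma of the ovary. Rows of the deposited tables were chosen by their symbol (that of a ribosomal protein followed by P and a number) and selected on their measured level, a mean over the 4 libraries of 20 or more normalized read counts. This gave 182 pseudogenes (181 symbols, since RPL23AP7 stands for 2 gene identifiers) out of 1376 rows with such a symbol at any level and 62696 rows in all. Of the 1376 rows, 506 had no read in any library and 310 had a mean of at least 10. The 182 are copies of 51 genes, called parents here. Copies of large-subunit proteins (RPL) make up 127 of them and copies of small-subunit proteins (RPS) 55. GENCODE 29 annotates 166 as processed pseudogenes, 12 as transcribed processed pseudogenes, RPL17P3 as an unprocessed pseudogene and RPS27AP5 as a protein-coding gene. The remaining 2, RPSAP58 (ENSG00000288920) and 1 of the 2 rows named RPL23AP7 (ENSG00000291064), are not in that release, so no position is given for them.

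Levels were compared between OVCAR3 cells with a short hairpin RNA against the pseudogene transcript ANAPC1P2 (KD 1, 2 and 3, labelled as sets of 1 knockdown) and wild-type OVCAR3 cells (WT, 1 library). No library carries a non-targeting hairpin, so an effect of the hairpin itself and one of ANAPC1P2 loss cannot be told apart. The labels do not say whether the 3 sets were separate cultures or separate hairpins, so the p-values rest on a spread that may be technical. Ribosomal RNA was depleted and the library kit marks the strand of origin. ANAPC1P2 (ENSG00000285793) itself had 0, 8.55 and 8.89 normalized counts in KD 1, 2 and 3, against 15.6 in WT, too few reads for the test, with a ratio of 0.377 (95% interval 0.179 to 0.813, counting error only).

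Most ribosomal protein pseudogenes are processed: an mRNA was reverse transcribed and inserted elsewhere in the genome, without introns and usually without the promoter of the parent. Ribosomal protein genes have left more such copies in human DNA than almost any other gene family. Many copies lie in introns of other genes, and recent copies differ from the parent's coding sequence at only a few bases, so that a short read may match both.

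Stretches of 3 families show how much the copies differ from the parents. They are shown because copies with few and with many changed bases are described below under these names, and the differing bases decide where a read can be told from the parent. All are 120 bases of GENCODE 29 transcripts on GRCh38, 5′ to 3′ on the sense strand, and capitals mark the bases that differ from the parent. RPS2 encodes a protein of the 40S subunit near the mRNA entry channel, and the first bases of its coding sequence stand beside those of its 2 most abundant copies, with 2 and 3 mismatches.
RPS2: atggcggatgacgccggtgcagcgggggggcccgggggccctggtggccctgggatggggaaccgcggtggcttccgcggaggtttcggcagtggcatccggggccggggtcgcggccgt
RPS2P5: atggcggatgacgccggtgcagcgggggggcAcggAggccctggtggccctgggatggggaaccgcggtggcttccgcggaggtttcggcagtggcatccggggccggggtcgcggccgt
RPS2P46: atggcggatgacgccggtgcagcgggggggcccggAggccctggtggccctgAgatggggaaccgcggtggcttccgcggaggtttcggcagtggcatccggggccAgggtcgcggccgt

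RPL9 encodes a 60S protein. Over the first bases of its coding sequence, RPL9P7 has 0 mismatches and RPL9P32 has 7.
RPL9: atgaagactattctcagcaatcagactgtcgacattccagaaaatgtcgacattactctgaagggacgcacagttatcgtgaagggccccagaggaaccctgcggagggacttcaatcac
RPL9P7: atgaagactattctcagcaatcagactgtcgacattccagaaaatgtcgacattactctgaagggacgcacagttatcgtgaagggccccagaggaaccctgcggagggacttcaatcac
RPL9P32: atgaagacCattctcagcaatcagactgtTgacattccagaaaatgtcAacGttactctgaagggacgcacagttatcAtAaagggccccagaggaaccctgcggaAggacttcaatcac

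RPS3A encodes a 40S protein near the mRNA exit side. Over bases 343 to 462 of its coding sequence, RPS3AP6 has 1 mismatch, RPS3AP5 has 0 and RPS3AP27 has 14.
RPS3A: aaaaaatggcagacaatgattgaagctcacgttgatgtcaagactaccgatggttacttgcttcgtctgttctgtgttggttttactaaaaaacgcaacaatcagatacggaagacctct
RPS3AP6: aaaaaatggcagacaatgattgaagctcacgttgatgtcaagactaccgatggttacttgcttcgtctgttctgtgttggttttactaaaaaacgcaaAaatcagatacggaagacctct
RPS3AP5: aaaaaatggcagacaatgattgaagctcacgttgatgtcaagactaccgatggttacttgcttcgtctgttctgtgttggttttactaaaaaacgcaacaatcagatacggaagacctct
RPS3AP27: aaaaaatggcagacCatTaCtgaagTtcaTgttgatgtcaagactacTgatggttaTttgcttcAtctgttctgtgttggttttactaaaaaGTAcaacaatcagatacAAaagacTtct

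Between 42871815 and 56216398 reads were counted per KD library, against 27868718 for WT, and reads fell in 31014 to 32823 genes in KD and 36832 in WT. Markers of other cell types moved with the comparison. All 5 erythroid markers had lower values in KD, with sums of 1.55 to 3.79 normalized counts in KD and 14702 in WT, and HBB, HBA1 and HBA2 were at 0 reads in all KD libraries. The 5 neural markers summed to 47.4 to 65.4 in KD and 4153 in WT (5 of 5 lower, NEUROD6 at 0 in KD), and the 8 leukocyte markers to 54.5 to 92.9 in KD and 839 in WT (8 of 8 lower, LYZ, CD68 and FCGR3B at 0 in KD). Mesenchymal markers had lower values in 6 of 8 (509 to 634 in KD, 1838 in WT; ZEB1 and COL3A1 at 0 in KD, DCN at 0 in WT) and endothelial markers in 3 of 4 (229 to 310 in KD, 413 in WT). All 8 markers of the ovarian line were present in both groups, 4 higher and 4 lower in KD, but they summed to 102597 to 115300 in KD and 555441 in WT. PAX8, a transcription factor that marks serous ovarian carcinoma, had 18322, 19970 and 21361 normalized counts in KD, against 62685 in WT. The part of these markers in any result here was not tested, and with 1 WT library it cannot be told apart from the knockdown.

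The pseudogenes moved in both directions. Of the 182, 41 were higher in KD, 97 were lower and 44 did not pass limma's test (Benjamini-Hochberg adjusted p under 0.05 over 23344 genes whose mean was 10 or more), which is 22.5% higher and 53.3% lower, while 31.4% of all tested genes were called higher and 36.3% lower. With the libraries scaled to equal totals, 4746 genes were higher and 12509 lower (30 and 111 pseudogenes), and with median-of-ratios scaling 8758 and 6623 (44 and 87 pseudogenes). In bulk RNA, fewer cells of a type and less RNA per cell cannot be told apart. The median log2 difference, KD minus WT, was -1.73 over the pseudogenes, against -0.28 over all tested genes and 2.14 over the 51 parents. Over the 1063 other processed pseudogenes with a mean of at least 20 it was -2.26, with 10.1% called higher and 70.3% lower, so a fall is not particular to the 182. All 3 KD libraries lay above WT for 57 pseudogenes and below it for 117, against 40.0% and 52.2% of all tested genes, and the groups overlapped for 8. The mean that chose the pseudogenes runs over all 4 libraries and bears on these counts. A mean of at least 20 was reached with a KD mean under 20 by 70 pseudogenes, all lower in KD by construction, and with a WT value under 20 by 27, all higher by construction. Among the 85 with both at 20 or more, 21 were called higher (24.7%) and 37 lower (43.5%). The shares over all genes held to this same limit were not computed, here or for the classes below. The means ran from 20.5 to 2717 with a median of 40.7, and 115 pseudogenes were under 50. The 3 just inside the limit, RPL21P99, RPS27AP10 and RPL12P31, had means of 20.5, 20.6 and 20.7, and the 3 just outside, RPSAP36, RPL34P21 and RPL35AP20, had 19.8, 19.92 and 19.94.

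**Figure D1:**
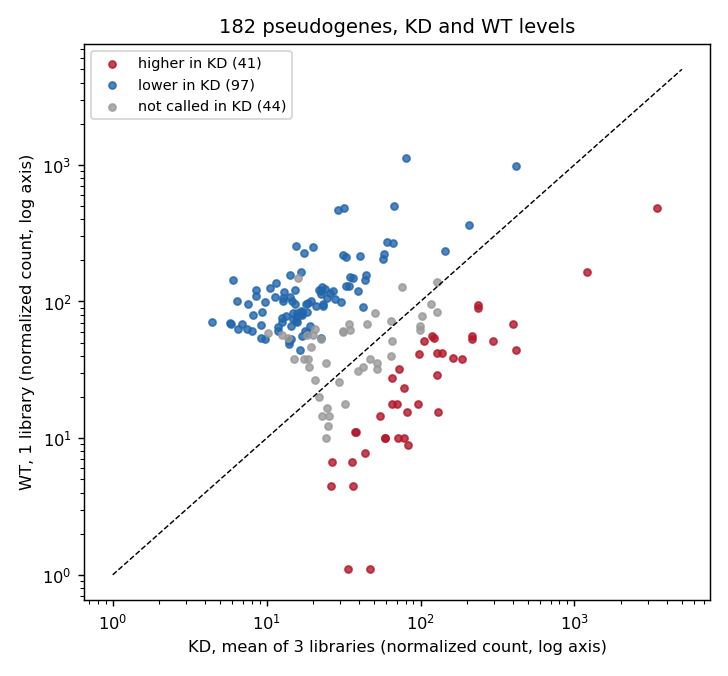
Normalized read counts of the 182 pseudogenes on log axes, KD mean of 3 libraries on the horizontal axis and the 1 WT library on the vertical axis, 1 point per pseudogene coloured by the limma call; the dashed line marks equal levels. The 97 pseudogenes called lower lie above the line and the 41 called higher lie below it.

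The parents, in contrast to their copies, moved almost all one way. Of the 51 parents, 47 were higher in KD, RPL36A and RPS10 were lower, and RPL17 and RPL26 did not pass the test. Both lower calls were lost without KD 1 and under median-of-ratios scaling, and 1 of them without KD 2. In the wider list of 79 cytosolic ribosomal protein genes, 73 of 78 tested were higher and 2 lower, with a median log2 difference of 2.06. Of the pseudogenes, 87 were called lower while the parent was called higher, and 39 were called higher together with it. Exons of other genes on the same strand cover 39.4% of RPS10 (RPS10-NUDT3), 32.7% of RPL17 (RPL17-C18orf32), 14.3% of RPL26 and 8.40% of RPL36A (RPL36A-HNRNPH2). Parents called higher have such overlap too, among them RPS2 (25.6%), RPL13A (17.3%), RPL7A (12.7%) and RPL21 (8.80%). The largest overlaps there are with AC005363.1, SNORD35A, SNORD24 and SNORA27, in this order. The SNORD and SNORA genes encode small nucleolar RNAs, so these overlaps are not of the same kind as those with RPS10-NUDT3, RPL17-C18orf32 or RPL36A-HNRNPH2. All shares are of the bases in any exon of the parent. The values of parents with shared exons are uncertain, as reads there may be split or dropped.

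The 10 pseudogenes with the highest mean held copies of both kinds. RPS2P5 (ENSG00000240342, chromosome 12, 118246084 to 118246962, plus strand, GRCh38) had 3618, 3011 and 3755 normalized counts in KD 1, 2 and 3, against 485 in WT. The KD libraries lay far above WT and close to each other, a 7.13-fold higher level (log2 difference 2.83 ± 0.14 SE, limma adjusted p = 6.57e-05). RPS2P46 (chromosome 17, 19445970 to 19446852, minus strand), in an intron of ENSG00000235979, had 1284, 1089 and 1225 in KD, against 163 in WT. It too was separated from WT in every KD library, at 7.35-fold (log2 difference 2.87 ± 0.14, limma adjusted p = 6.57e-05). The parent RPS2 had 380850, 326178 and 390914 in KD, against 43647 in WT (log2 difference 3.06 ± 0.25, limma adjusted p = 0.000125).

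RPS3AP6 (chromosome 15, 59768352 to 59769146, plus strand) lies in no other gene and keeps an open reading frame of 264 codons, the full length of RPS3A. It had 453, 357 and 387 in KD, against 68.9 in WT, 5.79-fold higher (log2 difference 2.51 ± 0.20, limma adjusted p = 0.000121). RPL18AP3 (chromosome 12, 104265309 to 104265836, plus strand) lies in an intron of TXNRD1, which encodes thioredoxin reductase. It had 481, 373 and 402 in KD, against 44.4 in WT, 9.43-fold higher (log2 difference 3.20 ± 0.21, limma adjusted p = 7.67e-05). RPL14P1, RPL13AP5 and RPS3AP26 were also higher in all 3 KD libraries. RPL14P1 had 306, 239 and 340.2 in KD, against 51.1 in WT. RPL13AP5, a copy of the gene whose protein also enters the interferon-induced GAIT complex, had 267, 214 and 227 in KD, against 94.4 in WT. RPS3AP26, in an intron of BAIAP2L1, had 232, 225 and 249 in KD, against 88.9 in WT. Their log2 differences were 2.49, 1.31 and 1.39.

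The other 3 of the 10 were lower. RPL9P32 (chromosome 19, 29956369 to 29956988, minus strand) lies opposite to URI1, which encodes a prefoldin-like chaperone. It had 74.9, 90.9 and 74.5 in KD, against 1122 in WT, the highest WT value of any of the 182. The WT level was 14.0-fold that of KD (log2 difference -3.80 ± 0.23, limma adjusted p = 6.98e-05), while URI1 was higher in KD (log2 difference 1.01). RPSAP52 (chromosome 12, 65758020 to 65826997, minus strand) is a transcribed pseudogene known as an antisense transcript of HMGA2, a chromatin-architecture gene. It had 452, 415 and 384 in KD, against 986 in WT (log2 difference -1.24 ± 0.15, limma adjusted p = 0.000552), while HMGA2 was higher in KD (log2 difference 0.83). RPL36AP44, opposite to ANXA2, had 208, 259.5 and 156 in KD, against 359.9 in WT. Its KD libraries were spread by nearly as much as their distance to WT, and the call (log2 difference -0.82 ± 0.29, limma adjusted p = 0.0438) was lost without KD 1 (-0.84), without KD 3 (-0.63), under TMM (-0.72) or median-of-ratios scaling (-0.54), with no filter on low genes and with the KD reads thinned to the WT depth (-0.87).

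**Figure D2:**
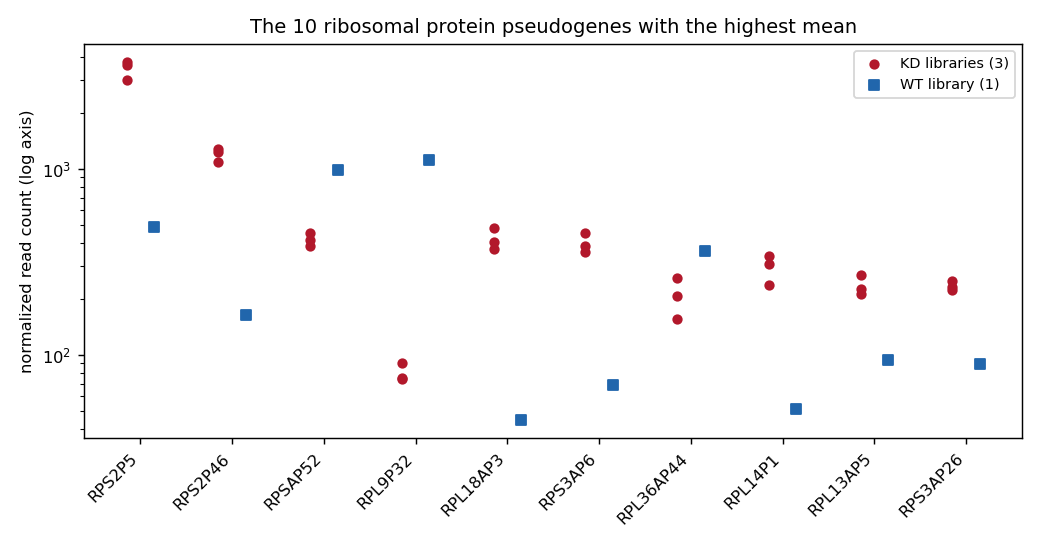
Normalized read counts on a log axis of the 10 pseudogenes with the highest mean, 1 red point per KD library and 1 blue square for the WT library. RPSAP52, RPL9P32 and RPL36AP44 have WT above all KD libraries, and the other 7 have WT below them.

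Among all called pseudogenes, the highest log2 differences were those of 2 copies of RPS3A with only 1 read in WT. RPS3AP5 (chromosome 10, 84560443 to 84561263, plus strand) had 52.1, 43.5 and 44.5 in KD, against 1.11 in WT, a ratio of 41.9 (95% counting interval 7.41 to 1667; log2 difference 4.49 ± 0.48, limma adjusted p = 0.00037). RPS3AP21 had 28.4, 33.4 and 38.9 in KD, against 1.11 in WT, a ratio of 30.0 (95% counting interval 5.27 to 1196; log2 difference 4.02 ± 0.53, limma adjusted p = 0.000894). The KD libraries are alike in both, and the width of the intervals comes from the single WT read. After RPL18AP3 (3.20), RPL5P34, RPL26P19, RPS2P46, RPL39P3 and RPS2P5 followed. RPL5P34 is a copy of RPL5, whose protein joins RPL11 in binding MDM2, and had 79.6, 60.6 and 107 in KD, against 8.89 in WT. RPL39P3, identical over the whole coding sequence to RPL39, a protein of the nascent peptide tunnel, had 88.1, 83.9 and 62.3 in KD, against 9.996 in WT.

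The largest falls were in RPL23AP18, RPL17P17, RPL7P11, RPL3P6, RPL7AP35, RPL17P3, RPL7AP47 and RPS12P5, with log2 differences of -4.42 to -3.80. RPL17P17, opposite to MAGI1, had 3.79, 7.77 and 6.67 in KD, against 144 in WT (log2 difference -4.41 ± 0.61, limma adjusted p = 0.00111). RPL7P11, opposite to RERE, had 26.5, 48.2 and 12.2 in KD, against 469 in WT (log2 difference -4.17 ± 0.70, limma adjusted p = 0.0025). RPL17P3, opposite to TSHR, the thyrotropin receptor gene, had 31.3, 38.9 and 25.6 in KD, against 482 in WT (log2 difference -3.90 ± 0.37, limma adjusted p = 0.000218). In each of these copies the WT value lay far above the highest KD library. RPL23AP18 and RPL7AP35 had no read in KD 3: RPL23AP18 had 7.58, 11.7 and 0 in KD, against 101 in WT, and RPL7AP35 had 6.63, 10.9 and 0 in KD, against 68.9 in WT. Their calls (limma adjusted p = 0.0296 and 0.04) were lost with a pseudocount of 0.5, at log2 differences of -4.79 and -4.34, and with no filter on low genes. That of RPL23AP18 was also lost with DESeq2 (-3.97), and that of RPL7AP35 under TMM and median-of-ratios scaling. RPL3P6, a copy of the gene of a protein close to the peptidyl transferase centre, had 19.0, 18.6 and 8.89 in KD, against 255 in WT.

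Position in the genome was read from GENCODE 29 for 180 pseudogenes. The counts by class include the 97 pseudogenes whose direction the selecting mean fixed, so each is given again over the 85 with both groups at 20 or more, a restriction chosen after seeing the data. Outside other genes 22 of 41 were called higher and 6 lower, with a median log2 difference of 1.13. With equal library totals these were 16 higher and 9 lower (median 0.58), and with no filter on low genes 16 and 5. In introns of a gene on the same strand the counts were 7 higher and 33 lower of 49 (median -2.23), and for those only opposite to a gene 10 higher and 58 lower of 86 (median -2.15). The 4 that overlap an exon on the same strand had 1 called higher, 0 lower and a median of 0.40. Over the 85, the counts were 10 higher and 3 lower of 22 outside other genes (median 0.50), 5 and 13 of 24 in same-strand introns (median -1.51) and 5 and 21 of 35 opposite to a gene (median -1.76). The other processed pseudogenes of the table with a mean of at least 20 had negative medians in each class: -0.21 over 186 outside other genes, -2.25 over 269 in same-strand introns and -2.54 over 569 opposite to a gene. Pseudogenes of other housekeeping families such as GAPDH and EEF1A1 had 28 higher and 85 lower of 139 (median -2.02), and 1.67 over the 28 outside other genes. These medians and counts describe the lists and were not tested against each other. The sources used here give no strand setting for the counting, so reads of a pseudogene and of a gene opposite to it, or of the unspliced RNA around it, may not be told apart.

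The calls of the genes around the lower copies stand beside a background in which 36.3% of all tested genes and 24.7% of the protein-coding ones were called lower. The shares called higher were 31.4% of all tested genes and 45.9% of the protein-coding ones. The counts below were not tested against these shares. Of the 33 lower pseudogenes in same-strand introns, 23 lay in a host gene that was not called lower and 17 in one called higher. Of the 58 lower ones opposite to a gene, 43 lay opposite to one not called lower and 26 opposite to one called higher. The tested hosts had medians of 0.40 (42 same-strand hosts) and 0.14 (80 opposite genes). Across pseudogenes, the log2 differences of copy and host had a Pearson r of 0.197 on the same strand (44 copies) and -0.0127 on the opposite strand (82 copies), a description over copies that share the same 4 libraries. Copies also differed by the level of the host. Those in or opposite to a host whose mean was 1000 or more were 7 higher and 81 lower of 104 (median -2.35), and those with a host under that level were 10 higher and 10 lower of 31 (median -0.10). Over the 85 these were 6 higher and 30 lower of 44 (median -1.94) and 4 and 4 of 15 (median -0.10). The groups by host level also differed in identity to the parent's coding sequence, with medians of 87.78% at 1000 or more and 94.98% under it. Over the 85 these medians were 88.76% and 94.98%. Copies were not split by host level and identity together, so the part of each was not tested. As a point of reference, the tested genes that GENCODE types as sense intronic had a median of -2.14, antisense genes -1.55 and protein-coding genes 0.28.

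**Figure D3:**
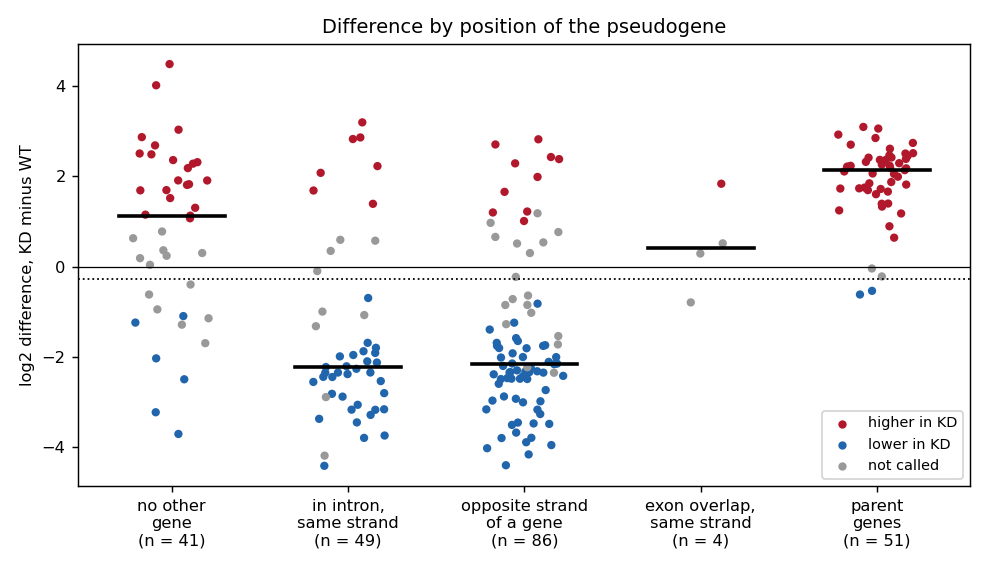
Log2 difference, KD minus WT, of each pseudogene by its position (in no other gene, in an intron of a gene on the same strand, opposite to a gene, over an exon on the same strand) and of the 51 parents; each point is a gene coloured by the limma call, bars are medians and the dotted line is the median of all tested genes (-0.28). The copies outside other genes (median 1.13) and the parents (2.14) lie higher than the copies in introns (-2.23) or opposite to genes (-2.15).

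The copies were also grouped by identity to the parent's coding sequence. Over 180 aligned pseudogenes the median identity was 91.8% (64.6% to 100%). Of the 34 with at least 98% identity, 25 were called higher and 2 lower (median log2 difference 1.75). From 95% to 98% there were 11 higher and 11 lower of 34 (median -0.25, and 0.03 with median-of-ratios scaling). From 90% to 95% there were 4 higher and 25 lower of 41 (median -1.76), and under 90% 0 higher and 59 lower of 71 (median -2.35). The correlation of identity and log2 difference across the 180 was r = 0.586 (Spearman's rho = 0.642). Over the pseudogenes with both groups at 20 or more, 13 were higher and 2 lower of 20 with at least 98% identity (median 1.18), 5 and 4 of 16 from 95% to 98% (median -0.52), 2 and 8 of 18 from 90% to 95% (median -1.28) and 0 and 23 of 29 under 90% (median -2.01). The correlation over these 83 was r = 0.572 (rho = 0.675). The copies share libraries, and close copies share sequence with their parents. The 2 copies of at least 98% identity called lower and the 4 under 95% called higher can be named, after their values were seen. RPL41P1, identical to the short coding sequence of RPL41, had 42.7, 43.5 and 40.0 in KD, against 91.1 in WT, and RPL22P1, in an intron of MECOM, had 36.0, 31.9 and 23.4 in KD, against 98.9 in WT. Under 95% identity, RPS3AP5, RPS14P8, RPS2P35 and 1 of the 2 rows named RPL23AP7 (ENSG00000240356) were called higher. Of these, RPS3AP5 has 0 mismatches to RPS3A over the 120 bases shown above.

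Identity and position overlap, since the copies outside other genes had a median identity of 97.0%, against 90.1% for those within other genes. Split by both, copies of at least 95% identity were 20 higher and 2 lower of 28 outside other genes (median 1.76) and 16 higher and 11 lower of 40 within them (median 0.60). Copies under 95% were 2 higher and 4 lower of 13 outside other genes (median -1.15) and 2 higher and 80 lower of 99 within them (median -2.35). With both groups at 20 or more, the close copies were 9 higher and 2 lower of 16 outside other genes and 9 and 4 of 20 within them, and those under 95% were 1 and 1 of 6 outside and 1 and 30 of 41 within. Reads of about 150 bases can match parent and copy exactly where a whole window is shared. Of 179 copies long enough, 33 hold at least 1 window of 150 bases found unchanged in a parent transcript (25 higher, 3 lower, median 1.70), and 146 hold none (15 higher, 93 lower, median -2.11). With both groups at 20 or more these were 14 higher and 1 lower of 19 and 6 and 35 of 63. RPS2P5 has 129 such windows of 730, RPS3AP6 263 of 646, RPL18AP3 229 of 379 and RPL9P7 266 of 431, while RPL9P32, RPS3AP27 and RPSAP52 have 0. In RPL36AP37, RPL39P3 and RPS28P7 every window is shared with the parent. RPL26P19 and RPS3AP5, the latter under 95% identity, are also among the 33. The sources used here do not state how reads matching several genes were counted. The values of the 33 copies are therefore uncertain, and the part of parent reads in them was not tested. Copies that keep an open reading frame of at least 90% of the parent's length were 18 higher and 8 lower of 32 (median 1.10), with a median identity of 98.5%, and the other 148 were 22 higher and 89 lower (median -2.01), with 90.3%. The first count was 12 and 8 with equal library totals (median 0.55), 13 and 4 with no filter on low genes, and 9 and 2 of 14 with both groups at 20 or more. The median of the others was -0.64 with a mean of at least 50 (49 copies) and -1.24 with both groups at 20 or more (69 copies).

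**Figure D4:**
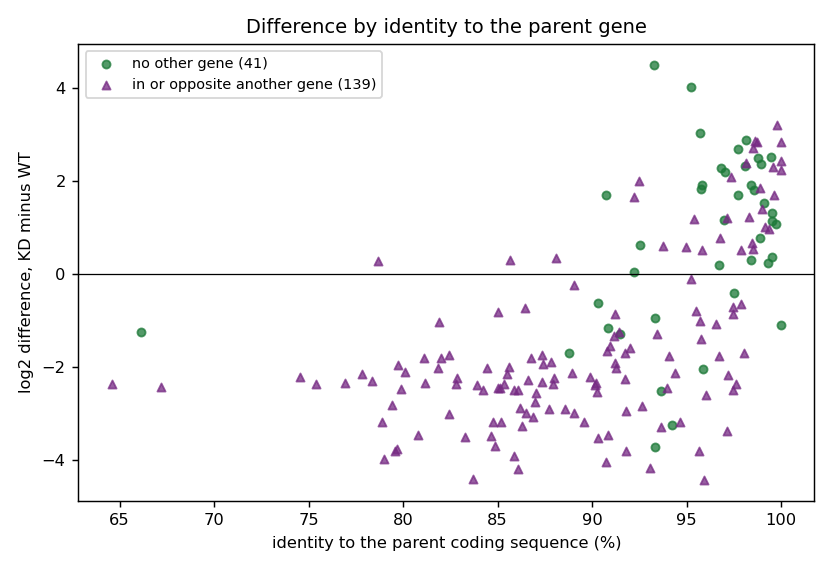
Log2 difference, KD minus WT, of 180 pseudogenes against the identity (%) to the parent's coding sequence, circles for the 41 in no other gene and triangles for the 139 in or opposite to another gene. Copies under 90% identity lie almost all below 0, and those of at least 98% mostly above it (median 1.75).

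Within families the copies of 1 gene went separate ways. RPS3A had 9 copies, 5 higher and 4 lower, between -3.46 (RPS3AP54) and 4.49 (RPS3AP5), against 2.85 for the parent. RPS3AP27 (chromosome 7, 133732493 to 133733595, minus strand), opposite to EXOC4, had 42.7, 51.3 and 26.7 in KD, against 214 in WT (log2 difference -2.43 ± 0.44, limma adjusted p = 0.00346). RPS2 had 7 copies, 5 higher and 2 lower, between -2.35 (RPS2P15) and 2.87 (RPS2P46). RPL7, a 60S protein gene, had the largest family with 14 copies, of which 3 were higher and 9 lower, between -4.17 (RPL7P11) and 2.71 (RPL7P23). None of the 13 copies of RPL7A was called higher and 9 were lower. All 7 copies of RPL35A and all 4 copies of both RPS15A and RPS26 were lower, while these parents were higher by 1.74, 2.71 and 1.25 on the log2 scale. Lower calls among the RPL35A copies were 2 of 7 with no filter on low genes and 5 of 7 without KD 1, without KD 2, with DESeq2 or with KD reads thinned to the WT depth. Among the RPS15A copies they were 2 of 4 with no filter and 3 of 4 without KD 1, without KD 3, with DESeq2 or with median-of-ratios scaling, and among the RPS26 copies 3 of 4 with no filter or DESeq2. In the RPL9 family, RPL9P7 (chromosome X, 23836742 to 23837321, minus strand), in an intron of APOO, had 44.5, 32.6 and 37.8 in KD, against 11.1 in WT (log2 difference 1.69 ± 0.45, limma adjusted p = 0.0159), opposite in direction to RPL9P32. The medians of the families named in this paragraph kept their sign under each scaling tried. Over all 182 copies, the log2 differences of copy and parent had r = 0.136 (Spearman's rho = 0.0983), a description across copies that share parents and libraries.

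**Figure D5:**
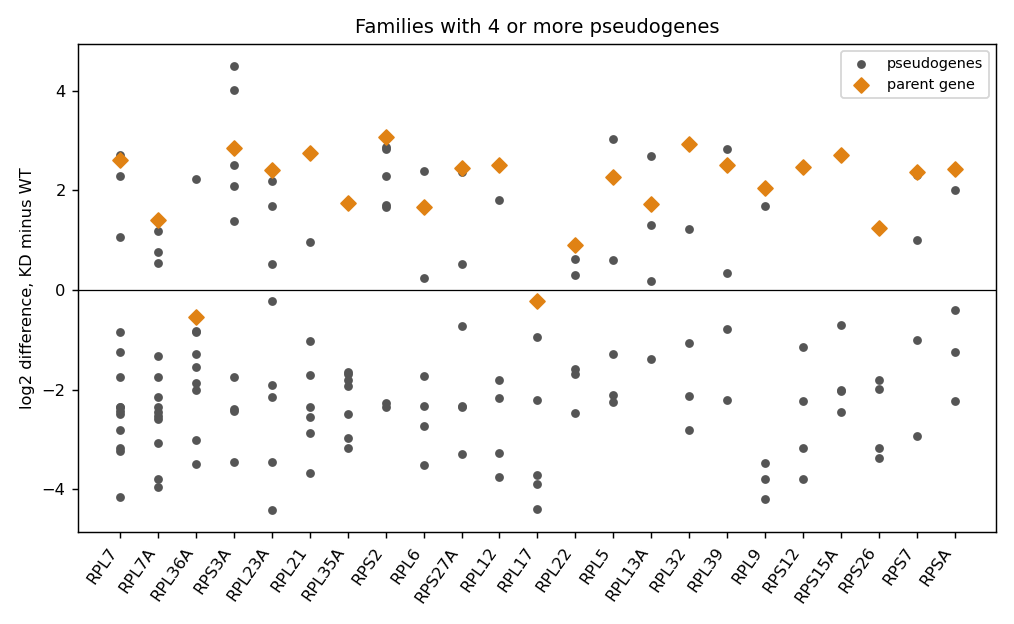
Log2 difference, KD minus WT, for the 23 parents with 4 or more pseudogenes, ordered by family size; grey points are pseudogenes and orange diamonds are parents. Parents lie above 0 apart from RPL36A (-0.54) and RPL17 (-0.22), while the copies of most families spread on both sides of 0.

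Each copy was also set against its parent within the library, as the log2 ratio of copy to parent, which library scaling hardly touches. Over all 1276 pairs of pseudogene and parent in the table, limma called the ratio higher in KD for 3.37% and lower for 74.6%. Of 181 pairs of ribosomal protein pseudogenes tested, 5 were higher and 137 lower, close to these shares and so no result particular to them, with a median of -3.40 beside -3.40 for all pairs. The pair of RPSAP58 was not tested, as no annotation used here typed that row as a pseudogene. In the 34 pairs of at least 98% identity the median was -0.36, with 3 higher, 12 lower and 19 not called, and in the 71 under 90% it was -4.65, with 0 higher and 69 lower. RPS2P5 held 0.950%, 0.923% and 0.961% of the read count of RPS2 in KD, against 1.11% in WT, and RPS3AP6 held 1.37%, 1.31% and 1.16% of that of RPS3A in KD, against 1.60% in WT (limma adjusted p = 0.0208 and 0.19). The call of RPS2P5 was lost without KD 1 (-0.24), without KD 2 (-0.22) and with a mean of at least 50 as the filter (-0.24). These shares compare read counts and not levels per length. RPL9P32 held 0.329%, 0.473% and 0.344% of the count of RPL9 in KD, against 22.1% in WT. RPL17P3 held 10.7%, 14.9% and 9.62% of that of RPL17 in KD and exceeded it in WT, at 152%. RPL17 itself had only 291, 260 and 266 normalized counts in KD, against 317 in WT. Exons of other genes, RPL17-C18orf32 above all, cover 32.7% of RPL17, so reads there may be split or dropped. Its counts and the shares of RPL17P3 are therefore uncertain.

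The 5 pairs higher in KD were those of RPL26P19, RPL36AP37, RPS3AP5, RPS10P7 and RPL18AP3. Of their parents, RPL36A, RPL26 and RPS10 are among the 4 that were not called higher. RPL26 averaged 627 normalized counts in KD, against 641 in WT, and RPS10 averaged 220, against 337. Other genes share exons with each of these parents, as given above, so the ratios of RPL36AP37, RPL26P19 and RPS10P7 to them are uncertain. All of the 5 copies but RPS10P7 hold at least 1 window of 150 bases found unchanged in a parent transcript. The values of these 4 copies are uncertain for that reason, and the part of parent reads in them was not tested. RPL36AP37 (chromosome 11, 16974693 to 16975013, minus strand), identical to the RPL36A coding sequence, had 245, 162 and 149 in KD, against 37.8 in WT, while RPL36A had 346, 364 and 386 in KD, against 529.8 in WT. The copy thus held 70.7%, 44.7% and 38.6% of the parent's count in KD, against 7.13% in WT (pair difference 2.77 ± 0.38, limma adjusted p = 0.000168). RPL26P19, a copy of RPL26, a protein at the tunnel exit, had 208.5, 103 and 81.2 in KD, against 15.5 in WT, with a pair difference of 2.91 ± 0.47 (limma adjusted p = 0.000351). RPS10P7, a copy of RPS10, which is ubiquitinated on collided ribosomes, had 123, 150.0 and 109 in KD, against 84.4 in WT. Its own difference was not called (0.58 ± 0.28, limma adjusted p = 0.109), and the pair difference was 1.19 ± 0.38 (limma adjusted p = 0.0137). The pair difference of RPL18AP3 was 1.06 ± 0.24 (limma adjusted p = 0.00232). Without KD 1 the pair calls of RPS3AP5 (1.61), RPS10P7 (1.20) and RPL18AP3 (0.98) were lost, and without KD 2 that of RPS3AP5 (1.59), which had a pair difference of 1.64 ± 0.62 (limma adjusted p = 0.0328) with all libraries and lost its call, at 0.22, with a pseudocount of 5.

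The largest falls of the ratio were in RPL23AP18 (-6.84), RPL7P11 (-6.78), RPL21P8 (-6.43), RPS3AP54 (-6.31), RPS12P5 (-6.27) and RPL12P20 (-6.26), each a lower copy of a higher parent. RPL21P8, opposite to FUT8, the core fucosyltransferase gene, had 19.0, 30.3 and 11.1 in KD, against 251 in WT, and its share of the RPL21 count was 0.0979%, 0.208% and 0.0657% in KD, against 9.99% in WT. RPL12P20, in an intron of LIMCH1, had 6.63, 15.5 and 3.34 in KD, against 109 in WT, while LIMCH1 was higher in KD (log2 difference 0.89). RPS3AP54 lies in an intron of ENSG00000236924, which was lower by the same log2 difference of -3.46 as the copy.

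Summed over all 182, the pseudogenes reached 14920.5, 13381 and 13371 normalized counts in KD, against 18092 in WT, a ratio of 0.768. Scaled to reads per 1000000 counted reads they reached 325, 306 and 281 in KD, against 584 in WT, a ratio of 0.520. Against the summed counts of their 51 parents they amounted to 0.816%, 0.856% and 0.749% in KD, against 4.96% in WT. Of every 1000000 counted reads, 39807, 35793 and 37462 lay in the parents in KD, against 11787 in WT. RPS2P5 and RPS2P46 made up much of the KD sum: without both, the sums were 10018, 9281 and 8390.2 in KD, against 17443 in WT, a ratio of 0.529. With 3 libraries against 1, an exact permutation test cannot give a p below 0.25, so these sums have no test.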

How the data were processed

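Total RNA of 4 OVCAR3 libraries (3 KD, 1 WT) was depleted of ribosomal RNA, per the labels' protocols. The submitters' processing notes name STAR 2.7.11b, featureCounts 2.0.6, DESeq2 and hg38. For the annotation release, strand setting and handling of multi-mapping reads, nothing is stated there. Each library's deposited signal column holds the authors' normalized read counts. Within 0.001 reads, 100% of these signal values are a whole number of reads divided by 1 factor per library.

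The 23344 genes whose mean was 10 or more were tested on log2(normalized count + 1) with limma-trend (version 3.58.1 in R 4.3.3), two-sided, with Benjamini-Hochberg adjusted p under 0.05 as the call. Its spread comes from the KD libraries, and the lone WT library is assumed to vary like them. Log2 differences on this scale understate changes of low genes. Copy and parent were compared by limma on the difference of their log2 values over 1276 pairs. edgeR 4.0.16 and DESeq2 1.42.0 on the recovered reads (41 and 35 pseudogenes higher, 104 and 87 lower; 7402 and 6913 of all genes higher, 9271 and 7079 lower), other scalings, filters, pseudocounts and libraries left out were alternatives. The scripts were tested on simulated data.

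Positions and transcripts came from GENCODE 29 (GRCh38), which holds 92.9% of the gene identifiers and 180 of the 182 pseudogenes. Identity is that of the local alignment (Biopython 1.88) of a copy's transcript to the parent's principal coding sequence, gaps counted. Intervals of count ratios are exact 95% binomial ones and, as no molecular identifiers are given, cover counting error only.

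The pseudogenes, gene lists and tests were chosen with earlier results of these data known. The text names the 10 pseudogenes with the highest mean, the 8 called with the largest log2 difference each way, up to 6 called pairs each way, the 3 on each side of the limit of 20, families of 4 or more by range, parents, and ANAPC1P2. Any other gene named was chosen after its values were seen.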

Additional observations from a re-analysis of the deposited data

How the results depend on the processing

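The counts of lower calls depend on the filter more than those of higher calls. Of the pseudogenes, 97 were called lower, against 44 with no filter on low genes, 26 with a mean of at least 50 as the filter or as the limit of the list, and 153 of 241 where the list was chosen by the mean of KD mean and WT. Over all genes, 7329 were higher and 8465 lower of 23344. These were 6544 and 9263 of 41539 with no filter, and 7102 and 5086 of 15635 with a mean of at least 50 as the filter (29 and 26 pseudogenes). The pseudogenes' median log2 difference of -1.73 reversed to 0.36 with a mean of at least 50 (67 pseudogenes, filter or list limit). It was -2.28 with equal library totals, -1.46 with median-of-ratios scaling and -2.20 in the list of 241. Equal totals moved the median of all genes from -0.28 to -0.84, and median-of-ratios scaling to -0.004. The median of all genes also reversed with a mean of at least 50 as the filter, to 0.21, and was -0.70 with no filter. Lower calls among the parents (2) were 1 with no filter, 4 with equal totals, 0 with median-of-ratios scaling, 1 with DESeq2 and 0 to 2 with a KD library left out. The median difference of copy minus parent (-3.40) was -1.51 with a mean of at least 50 and -4.10 in the list of 241. Lower pairs (137) fell to 42 with the filter and 43 with the list limit of 50, and higher pairs (5) were 2 to 5 with a KD library left out. The ratio of summed levels was 0.768 as deposited and 0.52 as reads per 1000000 counted reads. The pair differences of RPL39P3 and RPS3AP21, not called, reversed to -0.052 and -0.20 with a pseudocount of 5. The median of same-strand intron copies reversed to 0.35 with a mean of at least 50 (17 copies), and that of copies with 95% to 98% identity to 1.15 (13 copies). Fewer pseudogenes remain under the limit of 50 by construction. A change of scaling shifts the log2 differences of all genes by nearly the same amount, also by construction. For the other changes the cause was not tested. For single named genes, 568 alternatives kept direction and call, 27 lost the call, 1 gained it and 2 reversed. KD reads thinned to the WT depth, an alternative chosen after seeing the data, left 39 pseudogenes higher and 91 lower (7106 and 7573 of all genes). Over the 85 pseudogenes with KD mean and WT both at 20 or more, also chosen after seeing the data, 21 were higher and 37 lower (median -0.82), and of their 84 pairs 3 were higher and 63 lower (median -2.32). No paired analysis was possible because there is only 1 WT library. The 115 pseudogenes under a mean of 50 rest on few reads, and differences there were detectable only where large.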
